A study of Mus musculus with 4 samples.

Results

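Peak-dense windows are stretches of 1 Mb of the mouse genome in which the peak list of phosphorylated Smad1/5 (pSmad1/5) is most crowded. Chromosomes 1 to 19 (mm10) were cut into 2413 windows of 1 Mb from the first base, and the rows of the pSmad1/5 list were counted in each by their midpoints. A row is 1 line of a deposited peak list, that is, 1 interval with its signal. The windows were chosen by this count alone: those with 20 or more rows were kept, apart from 3 adjacent windows of a cluster near the end of chromosome 4. This left 84 windows on 18 chromosomes. With the chromosome 4 cluster, 3.61% of all windows reached 20 rows, a share that the rule itself sets. The members are all rows of both lists in the 84 windows, 2237 of 10741 pSmad1/5 rows and 1449 of 7905 pSmad3 rows.

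The rows come from CUT&RUN, in which an antibody directs a nuclease to chromatin and the released fragments are sequenced. The cells were dissociated from molar tooth germs of E13.5 (embryonic day) mouse embryos, which were wild type and of the CD1 strain, and 2 libraries were made with an antibody against pSmad1/5 and 2 with an antibody against pSmad3. The labels name no other genotype, treatment or stage. The authors deposited 1 list of common peaks for each antibody, so single libraries were not compared. A tooth germ holds epithelium, mesenchyme and other cells, so a row cannot be assigned to a cell type, and since a row is no measure of expression, tissue markers cannot be checked here.

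Smad1 and Smad5 are phosphorylated by receptors for bone morphogenetic proteins (BMP), and Smad3 by receptors for TGF-β and activin. The phosphorylated proteins join Smad4, enter the nucleus and bind DNA weakly on their own, at short motifs such as CAGAC and GC-rich sites. BMP signals pass between epithelium and mesenchyme while the molar bud forms, and loss of BMP signalling is known to stop tooth development at the bud.

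Rows that share their total signal, maximum and region of the maximum are pieces of 1 call. The 2237 pSmad1/5 rows came from 1398 distinct calls, and the 1449 pSmad3 rows from 1361. Counted as distinct calls, 23 of the 84 windows held 20 or more pSmad1/5 calls, so in the other 61 the count of 20 was reached by calls cut into pieces. The median maximum of the pSmad1/5 rows of a window set apart a group of 21 windows, called high-maximum windows here, in which it was 20 or more in the authors' signal units. This division was chosen after the values were seen. Each piece of a cut call repeats the maximum of its call, so 1 call can set the median of a window. The windows nearest to it had median maxima of 19 just below, on chromosome 12 at 20 to 21 Mb and chromosome 16 at 35 to 36 Mb, and of 21 just above, on chromosome 12 at 23 to 24 Mb and chromosome 8 at 127 to 128 Mb. The other 63 windows had medians of 14.5 to 19, close to the median of 16 over the whole list.

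The sequences below are picked examples of gene starts from both kinds of window and do not stand for either kind as a whole. Each is a RefSeq promoter of GRCm38.p6 (the assembly of mm10), 250 bases before the gene start and 50 after it, written on the gene's strand. The first was printed once for 3 genes of the high-maximum windows on chromosome 8, 4930467E23Rik (chr8:19729326-19729625, plus strand), Gm15319 (chr8:20363153-20363452, minus strand) and Gm21119 (chr8:20614677-20614976, plus strand), whose promoters were identical over all 300 bases.
4930467E23Rik, Gm15319 and Gm21119: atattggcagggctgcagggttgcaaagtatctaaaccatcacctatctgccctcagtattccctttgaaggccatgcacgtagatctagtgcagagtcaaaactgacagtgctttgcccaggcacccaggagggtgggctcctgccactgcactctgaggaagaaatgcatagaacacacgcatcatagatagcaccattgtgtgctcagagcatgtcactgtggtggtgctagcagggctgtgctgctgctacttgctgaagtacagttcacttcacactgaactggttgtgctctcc
All 3 copies were touched by rows of both antibodies. The pSmad1/5 rows had maxima of 66, 108 and 112 in the order of the genes above, and the pSmad3 rows 49, 127 and 66, against list medians of 16 and 13.

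The next pair belongs to Cyp3a41b (chr5:145584681-145584980, minus strand) and Cyp3a41a (chr5:145720087-145720386, minus strand), cytochrome P450 enzymes of the family that metabolises steroids and drugs. Their promoters shared 292 of 300 bases when aligned without gaps, and capitals mark the 8 positions that differed.
Cyp3a41b: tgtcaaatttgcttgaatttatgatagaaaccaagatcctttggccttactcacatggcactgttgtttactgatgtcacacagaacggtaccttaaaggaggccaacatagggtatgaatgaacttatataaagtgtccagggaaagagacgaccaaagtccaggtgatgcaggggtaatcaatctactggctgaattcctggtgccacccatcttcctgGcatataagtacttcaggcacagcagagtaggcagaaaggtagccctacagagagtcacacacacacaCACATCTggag
Cyp3a41a: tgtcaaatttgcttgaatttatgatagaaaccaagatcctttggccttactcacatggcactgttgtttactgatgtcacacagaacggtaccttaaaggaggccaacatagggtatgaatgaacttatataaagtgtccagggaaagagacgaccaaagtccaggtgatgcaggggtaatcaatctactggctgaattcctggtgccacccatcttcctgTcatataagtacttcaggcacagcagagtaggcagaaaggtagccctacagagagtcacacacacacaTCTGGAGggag
A pSmad3 row (maximum 13) touched the Cyp3a41b promoter, and no row touched that of Cyp3a41a.

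The last 3 promoters come from the other windows, were chosen after their values were seen, and were each touched by a row of both antibodies. Espn (chr4:152128876-152129175, minus strand) encodes an actin-bundling protein, Gpx4 (chr10:80053409-80053708, plus strand) an enzyme that reduces lipid peroxides, and Sema5b (chr16:35541112-35541411, plus strand) a semaphorin, a guidance molecule. Capitals mark matches to CAGAC on either strand (CAGAC or GTCTG) and to GGCGCC, which reads the same on both strands. A further motif, GTCTAGAC, holds no CAGAC, also reads the same on both strands and was not marked.
Espn: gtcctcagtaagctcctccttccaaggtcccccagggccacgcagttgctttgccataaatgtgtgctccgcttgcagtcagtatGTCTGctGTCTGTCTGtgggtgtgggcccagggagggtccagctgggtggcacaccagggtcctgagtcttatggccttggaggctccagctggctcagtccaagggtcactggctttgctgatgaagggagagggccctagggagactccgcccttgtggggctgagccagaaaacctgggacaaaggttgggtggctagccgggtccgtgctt
Gpx4: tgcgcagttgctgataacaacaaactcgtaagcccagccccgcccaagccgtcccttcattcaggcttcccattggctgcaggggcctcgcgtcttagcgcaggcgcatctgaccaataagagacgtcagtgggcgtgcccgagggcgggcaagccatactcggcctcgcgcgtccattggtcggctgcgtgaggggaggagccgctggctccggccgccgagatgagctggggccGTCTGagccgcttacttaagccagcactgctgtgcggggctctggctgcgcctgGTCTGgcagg
Sema5b: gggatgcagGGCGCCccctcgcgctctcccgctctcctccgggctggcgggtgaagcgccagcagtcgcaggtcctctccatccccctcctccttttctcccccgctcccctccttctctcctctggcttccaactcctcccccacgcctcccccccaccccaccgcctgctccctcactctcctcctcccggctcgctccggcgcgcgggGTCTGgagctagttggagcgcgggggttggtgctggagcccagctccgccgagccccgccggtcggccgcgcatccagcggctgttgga
The maxima of the calls touching these promoters were near the list medians. They were 18, 14 and 21 for pSmad1/5 and 15, 13 and 15 for pSmad3, in the order Espn, Gpx4 and Sema5b.

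The shares of touched promoters with CAGAC or GGCGCC lay close to those of all promoters. RefSeq promoters were found for 1704 gene starts in the windows, and CAGAC lay in 48.6% of them, against 48.4% of all 20085 promoters. It lay in 79 of 168 window promoters touched by a pSmad1/5 row (47.0%, exact 95% Clopper-Pearson interval 39.3 to 54.9, as for all intervals here, covering counting error only) and in 93 of 193 touched by a pSmad3 row (48.2%, 41.0 to 55.5). GGCGCC lay in 16.1% and 15.5% of those touched, against 15.8% of all promoters. GTCTAGAC was rare, in 1 of 168 promoters touched by a pSmad1/5 row (0.595%, 0.0151 to 3.27) and in 3 of 193 touched by a pSmad3 row (1.55%, 0.322 to 4.48), against 48 of all 20085 (0.239%). The pSmad3 share, above that of all promoters, rests on 3 promoters. A match is only a description of these 300 bases.

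The windows were scattered over the chromosomes in short runs. Chromosome 5 held 11, chromosomes 8 and 17 held 9 each, chromosomes 2, 4, 7 and 12 held 7 each, and chromosome 18 held none. Of the 84 windows, 37 adjoined another, as on chromosome 5 from 111 to 115 Mb and chromosome 8 from 119 to 123 Mb. Within 20 Mb of the last annotated feature of their chromosome lay 30.95% of the peak-dense windows, against 16.5% of all windows. They held a median of 15 protein-coding genes (1 to 61), against 5 (0 to 67) in the remaining 2326 windows. Windows with 15 to 19 pSmad1/5 rows, which are among the remaining ones, held a median of 17, so this number is not particular to the peak-dense windows. The median was 10 in high-maximum windows and 17 in the other peak-dense windows. Over all 2413 windows the number of pSmad1/5 rows went with the number of coding genes at a Spearman rank correlation of 0.606 and with the number of pSmad3 rows at 0.799, and pSmad3 rows went with coding genes at 0.604. These correlations are descriptions over windows that share the same 2 lists and gene table.

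pSmad1/5 rows per window, which the rule used, ran from 20 to 56 with a median of 24.5, and distinct calls from 5 to 25 with a median of 17. At the threshold, 16 windows of exactly 19 rows lay just outside it and 19 windows of exactly 20 rows just inside. The fewest calls lay in the windows on chromosome 3 at 106 to 107 Mb, with 26 rows from 5 calls, and on chromosome 8 at 127 to 128 Mb, with 21 rows from 5 calls. The most lay on chromosome 12 at 112 to 113 Mb, which holds Akt1 and Jag2, with 36 rows from 25 calls, and on chromosome 10 at 80 to 81 Mb, which holds Gpx4, with 33 rows from 25 calls.

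**Figure D1:**
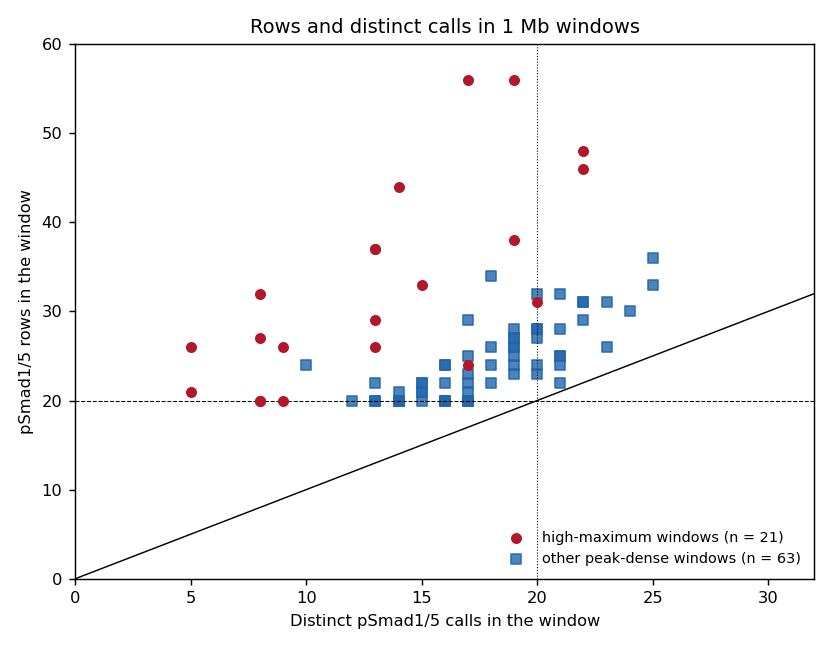
Rows of the pSmad1/5 list (vertical axis) against distinct calls (horizontal axis) in each of the 84 peak-dense windows, 1 mark per window, circles for the 21 high-maximum windows and squares for the other 63. The solid line marks equal numbers, the dashed line the 20 rows of the rule and the dotted line 20 calls, and 23 windows reach the dotted line.

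The windows were crowded in the pSmad3 list too, which the rule did not use. They held 18.3% of all pSmad3 rows (interval 17.5 to 19.2) on 3.48% of the windows, and 17.7% of all pSmad3 calls. A peak-dense window held 7 to 31 pSmad3 rows with a median of 16 (quartiles 12.75 and 21), against a median of 1 and a highest value of 32 in the remaining windows. 28 of the 84 windows held 20 or more pSmad3 rows, where 1.74% of all windows did. A further 11 such windows lay among the remaining 2326. Windows with 15 to 19 pSmad1/5 rows, 93 in number, held a median of 11 pSmad3 rows (1 to 22).

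By rows, 3 of the 84 windows held more pSmad3 than pSmad1/5 members. By distinct calls, 37 held more pSmad3 calls and 4 held as many of each. pSmad3 rows were seldom in pieces, with 6.10% of the member calls cut (4.89 to 7.504), against 2.69% over chromosomes 1 to 19. Among pSmad1/5 member calls 34.5% were cut (31.99 to 37.04), against 20.1% over chromosomes 1 to 19 and 16.8% (16.0 to 17.8) in the remaining windows. The rule counts each piece as a row, so it favours windows with cut pSmad1/5 calls, and this difference is no finding. Among the 23 windows with 20 or more distinct calls, 28.8% were cut. The pieces of a pSmad1/5 call lay a median of 2305 bp apart.

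The 21 high-maximum windows held 697 pSmad1/5 rows from 277 calls, or 2.52 rows per call, and 381 pSmad3 rows from 345 calls. The other windows held 1540 pSmad1/5 rows from 1121 calls, or 1.37 per call, and 1068 pSmad3 rows from 1016 calls. In high-maximum windows 54.9% of pSmad1/5 calls were in pieces (48.8 to 60.8). In the other peak-dense windows 29.4% were (26.8 to 32.2), close to the 28.0% in windows with 15 to 19 rows. Pieces enter the window median one by one, so the division is tied to this difference, which is no finding. pSmad3 rows in high-maximum windows had a median maximum of 18 and those in the other windows 13, which is also the median of the pSmad3 list. Only pSmad1/5 maxima were used to make the division.

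The overlap of both antibodies was larger in high-maximum windows than in the other peak-dense windows. There, 71.9% of pSmad1/5 rows (68.4 to 75.2) overlapped a pSmad3 row by at least 1 bp, against 21.2% (19.2 to 23.4) in the other peak-dense windows, 20.1% (18.1 to 22.2) in windows with 15 to 19 rows and 16.6% (15.8 to 17.4) in all remaining windows. Over all 84 windows the share was 37.0% (35.0 to 39.1), against 21.6% over chromosomes 1 to 19. For pSmad3 rows the shares were 68.8% (63.8 to 73.4) in high-maximum windows and 25.9% (23.3 to 28.7) in the other peak-dense windows, against 18.7% (17.7 to 19.7) in the remaining ones. The chromosome 4 cluster, which is no member, had a high overlap too, with 65.8% of its pSmad1/5 rows (57.5 to 73.4) and 80.6% of its pSmad3 rows (69.5 to 88.9). All 84 windows together gave 37.2% of pSmad3 rows (34.7 to 39.7), against 22.7% over chromosomes 1 to 19. With an overlap of at least 50% of the pSmad3 row it was 12.5%, against 9.20% over chromosomes 1 to 19. A pSmad3 row has more pSmad1/5 rows near it in these windows by the rule, so the rule bears on these shares. Counted as calls, 69.7% of pSmad1/5 calls in high-maximum windows (63.9 to 75.03) and 24.0% in the other peak-dense windows (21.5 to 26.6) overlapped a pSmad3 row, against 16.5% in the remaining ones (15.6 to 17.4).

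Rows with a high maximum, more than 2 times the list median, made up 38.7% of pSmad1/5 rows in high-maximum windows, which the division fixes, and 2.14% in the other peak-dense windows, against 5.44% in the remaining windows and 8.01% over chromosomes 1 to 19. Of pSmad3 rows they made up 19.4% in high-maximum windows and 1.31% in the other peak-dense windows, against 4.28% in the remaining windows and 5.02% over chromosomes 1 to 19. With high pSmad1/5 rows left out and all pSmad3 rows kept, 63.0% of pSmad1/5 rows in high-maximum windows overlapped a pSmad3 row. It was 20.3% in the other peak-dense windows, against 13.3% in the remaining ones. The larger overlap was also present in pSmad1/5 rows of at most 2 times the list median. The division was made on pSmad1/5 maxima, so the kept rows can still differ in maximum between the kinds of window. This cut therefore cannot set the overlap apart from the maximum. pSmad3 rows summed to 4293 kb in the 21 high-maximum windows, 5192 kb in the other 63 and 30019.5 kb in the remaining 2326. The part of this wider cover in the overlap was not tested.

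**Figure D2:**
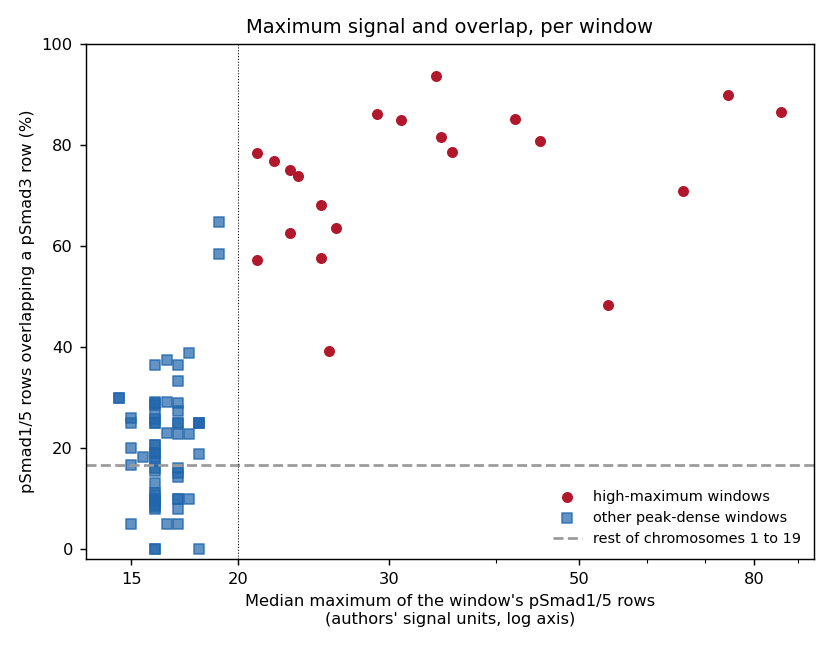
Share of a window's pSmad1/5 rows that overlap a pSmad3 row (vertical axis, percent) against the median maximum of its pSmad1/5 rows (horizontal log axis, authors' signal units), 1 mark per peak-dense window. High-maximum windows (circles) lie between 39.3% and 93.8%, other peak-dense windows (squares) between 0% and 64.7%, and the dashed line gives the 16.6% of the remaining windows.

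Rows in high-maximum windows were wider and touched genes less often by share. A coding gene was touched by 31.99% of their pSmad1/5 rows (28.5 to 35.6) and by 67.5% (65.1 to 69.8) of those in the other peak-dense windows, against 57.5% in the remaining windows and 57.4% over chromosomes 1 to 19. For pSmad3 rows the shares were 37.8% in high-maximum windows and 71.2% in the other peak-dense windows. They were 60.8% in the remaining windows and 61.2% over chromosomes 1 to 19. In windows with 15 to 19 rows the shares were 63.4% for pSmad1/5 and 67.8% for pSmad3. High-maximum windows also held fewer coding genes, a median of 10 against 17 in the other peak-dense windows. The part of gene number in these shares was not tested. Median widths in high-maximum windows were 2806 bp for pSmad1/5 rows and 6236 bp for pSmad3 rows, in the other peak-dense windows 2365 and 4668 bp, and in the remaining windows 2348 and 4612 bp.

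High-maximum windows held a larger share of copied gene starts than the other peak-dense windows. A promoter was counted as copied when at least 50% of its stretches of 31 bases also lay in a promoter of another gene that it does not overlap. Of genes with a RefSeq promoter, 69 of 192 in high-maximum windows had a copied one (35.9%, 29.2 to 43.2) and 22 of 1146 in the other peak-dense windows (1.92%, 1.21 to 2.89), against 613 of 15097 in the remaining windows (4.06%, 3.75 to 4.39). In the chromosome 4 cluster, which is no member, 5 of 23 genes had a copied promoter (21.7%, 7.46 to 43.7). This interval overlaps that of the high-maximum windows, so copied promoters are not particular to them. At least 1 copied promoter lay in 17 of the 21 high-maximum windows and in 7 of the other 63. The 4 high-maximum windows without one lay on chromosome 13 at 12 to 13 Mb, chromosome 6 at 114 to 115 Mb, chromosome 3 at 106 to 107 Mb and chromosome 8 at 127 to 128 Mb. Between near-identical copies, the copy that a read came from cannot be told apart here, so rows and genes named from high-maximum windows are uncertain in place. The part of copied sequence in the maxima and overlaps was not tested.

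A larger share of promoters was touched by pSmad3 rows in the windows than in the rest of the chromosomes. The windows also held more pSmad3 rows, a median of 16 against 1, so this share is no separate result. A pSmad3 row touched the promoter of 45 of 192 genes in high-maximum windows (23.4%, 17.6 to 30.1) and of 117 of 1146 in the other peak-dense windows (10.2%, 8.52 to 12.1), against 3.78% (3.48 to 4.09) in the remaining windows. For pSmad1/5, which the rule used, the shares were 17.7% in high-maximum windows and 10.03% in the other peak-dense windows, against 3.08% in the remaining ones. Rows of both antibodies, a count that also rests on the rule, touched 23 promoters in high-maximum windows and 14 in the other peak-dense windows, that is 11.98% and 1.22%, against 0.603% in the remaining windows. CpG dinucleotides per promoter had a median of 4 in high-maximum windows and 18 in the other peak-dense windows, against 13 in the remaining windows.

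The longest runs of pieces lay in high-maximum windows. A total of 26 pSmad1/5 calls were cut into 6 or more pieces, and 25 of them lay in high-maximum windows. Every piece counts in the median maximum of its window, so this number is tied to the division and is no finding. Together these 26 calls gave 239 rows. On chromosome 13 the call at chr13:12780457-12971213, over Prl2c3, a hormone-like gene of the prolactin family, spanned 190.757 kb in 21 pieces. All 21 pieces overlapped pSmad3, which covered the same span with 3 rows, and the maxima were 34 for pSmad1/5 and at most 27 for pSmad3. The window that holds it had 32 pSmad1/5 rows from 8 calls and 10 pSmad3 rows from 9.

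On chromosome 17 the call at chr17:6397489-6574066, over Dynlt1b, a light chain of the dynein motor, had 19 pieces over 176.578 kb, of which 11 overlapped pSmad3. The window around it held 56 pSmad1/5 rows from 19 calls, a number of rows matched among the 84 windows by that on chromosome 1 at 85 to 86 Mb alone, and had the lowest overlap of the high-maximum windows, 39.3%. Its pSmad3 rows, 21 from 20 calls, had a median maximum of 14. In the same window Tulp4, a tubby-like protein, had 7 pSmad1/5 rows from 4 calls and 1 pSmad3 row. Further along chromosome 17, at 13 to 14 Mb, a call in 12 pieces covered Smok2a and Smok2b, sperm motility kinases, and a call in 9 pieces reached into Tcp10c, a t-complex gene. Tcp10c had 5 pSmad1/5 rows from 2 calls and 4 pSmad3 rows from 3, and all 5 pSmad1/5 rows overlapped pSmad3.

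**Figure D3:**
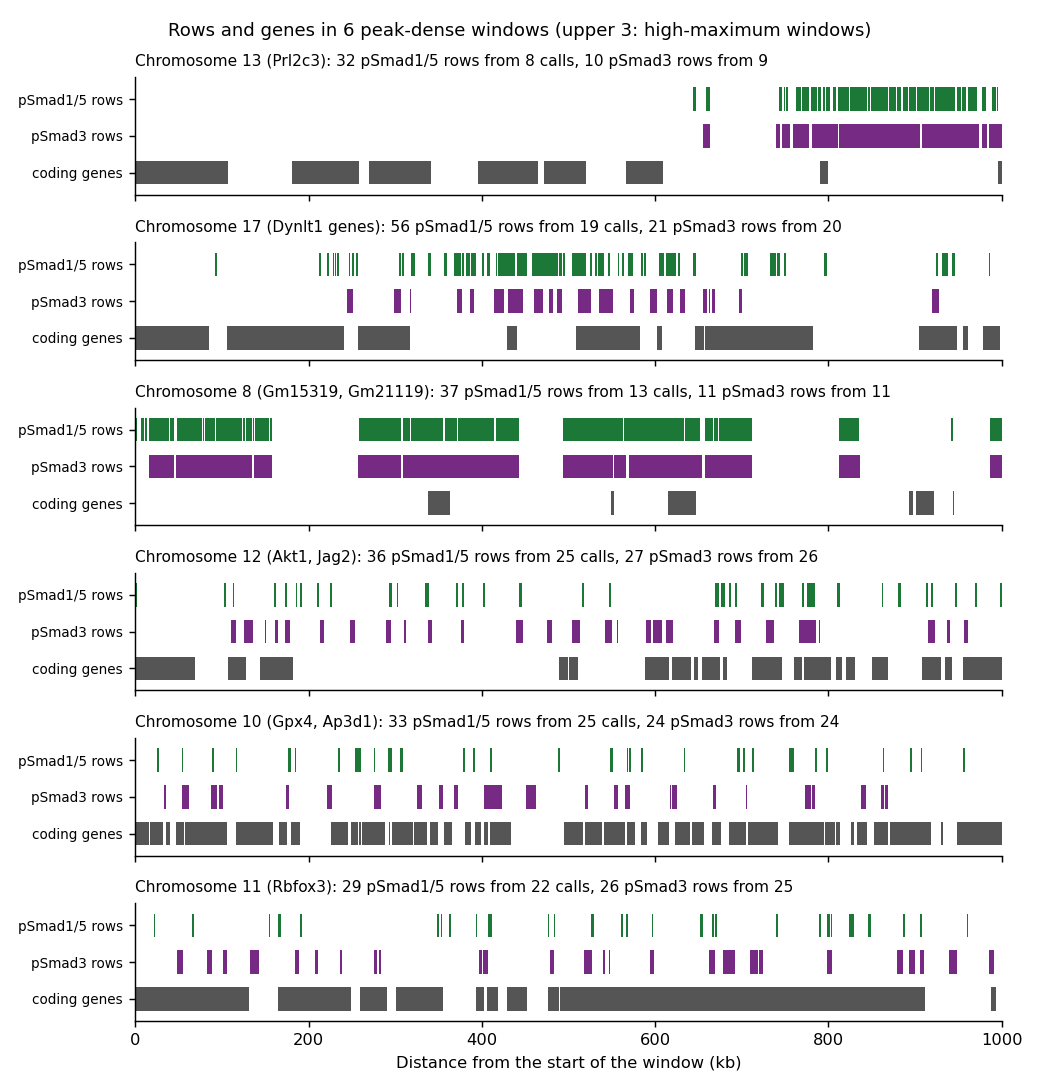
Rows of both lists and protein-coding genes along 6 peak-dense windows (horizontal axis, distance from the start of the window in kb), with bars drawn to scale, the upper 3 from high-maximum windows and the lower 3 from other peak-dense windows. Rows cover long runs in the upper windows, such as the 21 pieces beside Prl2c3, and lie apart in the lower ones.

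High-maximum windows on chromosomes 1 and 10 hold genes of the Sp100 and Raet1 families. On chromosome 1 at 85 to 86 Mb, 56 pSmad1/5 rows came from 17 calls and 23 pSmad3 rows from 20. Its window medians were 35.5 for pSmad1/5 and 27 for pSmad3, and it holds Sp110, Sp140 and Sp100, nuclear body proteins of the immune response. Sp110 had 7 pSmad1/5 rows from 3 calls (highest maximum 47) and 4 pSmad3 rows from 3 calls (highest maximum 37). On chromosome 10 at 22 to 23 Mb, Raet1e, a stress ligand for natural killer cells, had 5 pSmad1/5 rows from 1 call (maximum 45) and 5 pSmad3 rows from 5 calls (maximum 26). The related Raet1d lay under a pSmad1/5 call of 10 pieces at chr10:22321656-22398319, all 10 overlapping pSmad3.

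The highest window medians lay on chromosome 8, in a pair of adjacent windows. At 20 to 21 Mb the median maximum was 86 for pSmad1/5 (37 rows from 13 calls) and 46 for pSmad3 (11 rows from 11 calls). At 19 to 20 Mb it was 74.5 for pSmad1/5 (20 rows from 8 calls) and 53 for pSmad3 (8 rows from 7 calls). In these windows 86.5% and 90% of the pSmad1/5 rows overlapped pSmad3. The member rows with the highest total signal of both lists lay here. For pSmad1/5 this was a call in 4 pieces at Gm21119 (maximum 112), and for pSmad3 a row at chr8:20309419-20442777 over Gm15319 (maximum 127). Both windows also hold genes of beta-defensins, antimicrobial peptides, and none of the 13 Defb genes had a row of either antibody in its locus.

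Further high-maximum windows hold families of secreted proteins, enzymes and homeobox genes. On chromosome 4 at 61 to 62 Mb, all 7 genes with a promoter had a copied one, and Mup5, a major urinary protein that carries pheromones, had 7 pSmad1/5 rows from 1 call and 2 pSmad3 rows from 2, with all 7 overlapping. Its neighbour window at 60 to 61 Mb held Mup7, with 4 rows from 2 calls and 4 pSmad3 rows from 4, and Mup12, with none. Chil3 and Chil4, chitinase-like proteins, shared a call of 9 pieces, and Chil4 had 7 pSmad1/5 rows from 2 calls and 2 pSmad3 rows from 2. Cyp3a41a had 4 pSmad1/5 rows from 2 calls and 5 pSmad3 rows from 4, Cyp3a41b had 1 and 3, and Cyp3a11 had none. Obox2, a homeobox gene of the oocyte, had 2 rows of each antibody, and Obox1 had 1 pSmad1/5 row and no pSmad3 row.

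In the high-maximum window without copied promoters on chromosome 6 at 114 to 115 Mb, 22 of 31 pSmad1/5 rows and 11 of 20 pSmad3 rows had a high maximum, up to 126 and 98. The genes named from it had rows of lower maximum. Slc6a11, a transporter of the neurotransmitter GABA, had 1 pSmad1/5 row with a maximum of 15 and no pSmad3 row, and Atg7, an enzyme of autophagy, had 2 pSmad1/5 and 4 pSmad3 rows with maxima of 13. On chromosome 8 at 127 to 128 Mb, Pard3, a polarity protein and the only coding gene of its window, had no row of either antibody in its locus, while the window held 21 pSmad1/5 rows from 5 calls and 9 pSmad3 rows from 9.

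In the other 63 windows rows lay along long genes and between short ones, with maxima near the list medians. A locus is a gene's body and 10 kb on either side. The rows of a long gene share 1 stretch of chromosome and are not replicates. Rbfox3, a neuronal splicing factor of 422 kb, had the most, with 17 pSmad1/5 rows from 13 calls and 13 pSmad3 rows from 12. Of its pSmad1/5 rows 6 overlapped pSmad3. Cdh23, a cadherin of the hair cell's tip links, had 12 pSmad1/5 rows from 10 calls and 12 pSmad3 rows from 11, of which 2 pSmad1/5 rows overlapped pSmad3. At Rbfox3 and Cdh23 the antibodies had similar numbers of calls. Most of their pSmad1/5 rows lay apart from pSmad3, as in the other peak-dense windows together, where 21.2% overlapped.

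The next genes each had the most pSmad1/5 calls of their own window. Atp2b2, a calcium pump of the plasma membrane, had 12 pSmad1/5 rows from 8 calls and 3 pSmad3 rows. Grik3, a kainate receptor subunit, had 10 from 7 calls and 3 pSmad3 rows, with no overlap. Sorcs2, a sorting receptor of the sortilin family, went the other way, with 9 pSmad1/5 rows from 7 calls and 12 pSmad3 rows from 12. Kcnab2, a potassium channel subunit, had 8 from 5 and 5 from 5 and Kcnq1, a potassium channel, 4 from 4 and 4 from 4. Jph3, a junctophilin that ties membranes together, had 7 pSmad1/5 rows from 4 calls and no pSmad3 row. Nav1, a neuron navigator, had 7 from 6 calls and 2 pSmad3 rows.

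The following genes led their windows in the same way. Prdm16, a zinc finger regulator of brown fat, had 8 pSmad1/5 rows from 6 calls and 9 pSmad3 rows from 7, with no overlapping pSmad1/5 row. Gse1, a coiled-coil protein, had 12 from 10 and 9 from 9. Zmiz1, a transcriptional coregulator, had 5 from 4 and 4 from 4, and Kdm4b, a histone demethylase, 5 from 4 and 5 from 5, of which 4 pSmad1/5 rows overlapped pSmad3. Nfatc2, a factor activated by calcium, had 6 from 4 and 2 from 2. Ell, an elongation factor, Med13l, a Mediator subunit, and Nelfb, a subunit of the negative elongation factor, had 4, 4 and 3 pSmad1/5 rows and 2, 3 and 1 pSmad3 rows.

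Some developmental regulators, chosen after their values were seen, had pSmad3 rows alone. So had 12.7% of all 1636 coding genes in the windows, and 22.0% had pSmad1/5 rows alone. Foxf1, a forkhead factor of mesenchyme, had 2 pSmad3 rows from 1 call and no pSmad1/5 row, Wnt7a, a Wnt ligand, had 3 pSmad3 rows and no pSmad1/5 row, and Gsc, a homeobox factor, had 1 pSmad3 row and no pSmad1/5 row. Others had both or neither. Dtx1, a modifier of Notch signalling taken by the rule for named genes, had 3 pSmad1/5 rows and 1 pSmad3 row, Hmx1, a homeobox factor of the craniofacial region, had 3 from 2 and 2 from 2, and Snai1, a regulator of epithelial to mesenchymal transition, had neither.

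Among genes of matrix, adhesion and the cytoskeleton, Fbln2, a fibulin of the extracellular matrix, had 5 pSmad1/5 rows from 4 calls and 5 pSmad3 rows from 4, and 4 of the pSmad1/5 rows overlapped pSmad3. Myo18b, an unconventional myosin, had 9 from 6 and 7 from 7, and Vav2, an activator of small GTPases, 7 from 5 and 7 from 7. Rbfox2, a relative of Rbfox3, had 3 pSmad1/5 rows and no pSmad3 row. At Pdia5, a disulphide isomerase of the endoplasmic reticulum chosen after its values were seen, lay the only call of 6 or more pieces outside the high-maximum windows, with 12 pieces over 63.36 kb and a maximum of 19. Next to it Sema5b had 6 pSmad1/5 rows from 3 calls and 3 pSmad3 rows from 2.

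**Figure D4:**
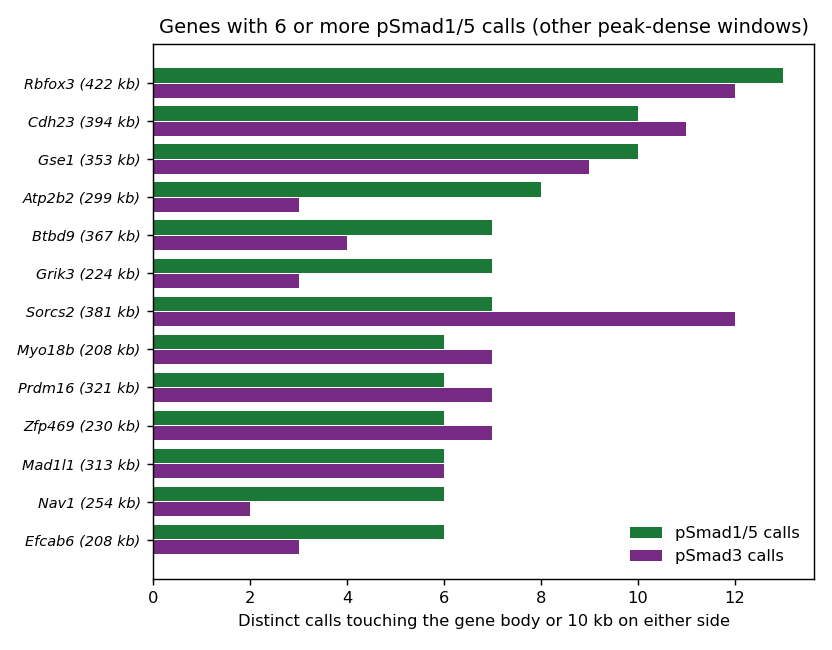
Distinct pSmad1/5 calls (upper bar) and pSmad3 calls (lower bar) touching the locus of the 13 genes with 6 or more pSmad1/5 calls among the leading genes of the other peak-dense windows, with gene length in kb beside each name. Rbfox3 leads with 13 and 12 calls, and Sorcs2 has 7 pSmad1/5 and 12 pSmad3 calls.

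A few rows in the other windows stood far above the rest. The pSmad1/5 list held 33 high-maximum rows there and the pSmad3 list 14. On chromosome 15 at 75 to 76 Mb, the highest maxima were 1787 for pSmad1/5 and 1572 for pSmad3, the pSmad3 row lying 19472 bp from Ly6c2, a surface antigen of blood cells. On chromosome 17 at 56 to 57 Mb they were 485 and 526, and on chromosome 5 at 114 to 115 Mb 396 and 270. The median row of these 3 windows stayed at 15 or 16 for pSmad1/5 and 13 for pSmad3. Elsewhere a high pSmad1/5 maximum had no match in pSmad3. On chromosome 8 at 125 to 126 Mb the highest maxima were 230 for pSmad1/5 and 18 for pSmad3. On chromosome 5 at 36 to 37 Mb they were 173 and 17.

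A larger share of coding genes had a pSmad3 row in the windows than elsewhere, a share tied to the larger number of pSmad3 rows there. Of 1636 coding genes, 867 had a pSmad3 row in the locus (53.0%, 50.5 to 55.4), against 23.04% (22.4 to 23.6) of 18896 genes in the remaining windows and 25.5% over chromosomes 1 to 19. For pSmad1/5, which the rule used, it was 1019 of the 1636 (62.3%), against 25.5% in the remaining windows and 28.5% over chromosomes 1 to 19. Rows of both antibodies lay at 659 genes (40.3%), against 12.4% in the remaining windows, and 409 genes (25%) had neither, against 63.9%, shares that also rest on the pSmad1/5 rows the rule counted. The genes in the windows were shorter, with a median length of 12613 bp against 18045 bp. The share with a pSmad3 row was alike in both kinds of window, 50.2% (43.5 to 57.0) of 223 genes in high-maximum windows and 53.4% (50.8 to 56.1) of 1413 in the others.

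No listed target of BMP or TGF-β signalling lay in the windows. With 20 and 22 genes, these lists are too short for that absence to be read as a finding. Of 385 placed genes of 18 lists for signalling, tissue markers and controls, 21 lay in the windows, as did 1636 of all 20560 coding genes, and none of the 21 lay in a high-maximum window. Among them was no listed BMP target, TGF-β target, dental mesenchyme marker, dental epithelium marker, erythroid marker, Hedgehog gene or Fgf gene. Of the 21 genes, 13 had a pSmad1/5 row, 14 a pSmad3 row and 15 either. Over all 1636 coding genes in the windows, 62.3% had a pSmad1/5 row, 53.0% a pSmad3 row and 25% neither. The counts of listed genes rest on 21 genes and were not tested against these shares.

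Notch genes were the most numerous of the listed genes in the windows, with 5 of 25, a count of few genes that was not tested. The receptor Notch1 had 3 pSmad1/5 rows from 2 calls and 2 pSmad3 rows from 2, none overlapping, with the highest pSmad3 row at percentile 91.8 of total signal in its list. Jag2, a Notch ligand, had 2 pSmad1/5 rows from 1 call and 2 pSmad3 rows from 2, and both pSmad1/5 rows overlapped pSmad3. Lfng, a glycosyltransferase that modifies Notch receptors, had 3 from 2 and 3 from 3, with all 3 pSmad1/5 rows overlapping. Its relative Rfng had 2 from 1 and 1 pSmad3 row, and Hes5, a Notch target, had 1 pSmad3 row alone.

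Of the BMP and TGF-β pathway components, 3 of 47 lay in the windows. Eng, a co-receptor of endothelial cells, had 3 pSmad1/5 rows from 2 calls and 3 pSmad3 rows from 3. Nbl1, a secreted BMP antagonist, had 2 from 1 and 1 pSmad3 row at percentile 0.822, near the lowest of its list. Acvr2b, an activin receptor, had neither. Of 3 Wnt genes, the ligand Wnt11 had 2 pSmad1/5 rows and 1 pSmad3 row, Axin1, a scaffold of β-catenin breakdown, had 2 pSmad3 rows alone, and Notum, which inactivates Wnt ligands, had neither. The matrix gene Col5a1 had 2 and 3 rows and Lamb2, a laminin chain, 1 and 2. Markers of other cells in the windows had 1 row of each antibody at Egfl7 (endothelium), Aif1 (myeloid cells) and Sox10 (nerve and glia), and 1 pSmad1/5 row alone at Pax7 (skeletal muscle). Comp, Cdkn1c, Eef2 and Tubb5 had none.

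Gene families described the same windows from another side. No Hox, keratin or vomeronasal receptor gene lay in them, and 1 of 1103 olfactory receptor genes did. Of all 20560 coding genes, 1636 lay in the windows, 223 of them in high-maximum windows. Among further families, 11 of 388 Zfp zinc finger genes, 9 of 91 ribosomal protein genes, 2 of 42 collagen genes and 2 of 28 Tbc1d genes did. No protocadherin, claudin or keratin associated protein gene lay there. The numbers of family genes in the windows were not tested. Of 99 cytochrome P450 genes, 10 lay in the windows and 7 of these in high-maximum windows, with a pSmad1/5 row at 4 and a pSmad3 row at 5 of the 10. Of 35 H2 histocompatibility genes, 7 lay in the windows, 5 with a pSmad1/5 row and 2 with a pSmad3 row. Of 334 solute carrier genes, 29 lay in the windows, 20 with a pSmad1/5 row and 17 with a pSmad3 row. Over all 1636 coding genes in the windows, 62.3% had a pSmad1/5 row and 53.0% a pSmad3 row. The solute carrier counts lie near these shares, and the P450 and H2 counts rest on few genes and were not tested.

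A larger share of microRNA hairpins was touched by pSmad3 rows in the windows than elsewhere, which is again tied to the number of pSmad3 rows there. Of 116 RefSeq hairpins, 14 were touched by a pSmad3 row (12.1%, 6.76 to 19.4), against 4.36% of 803 in the remaining windows. pSmad1/5 rows, whose number the rule fixed, touched 18 (15.5%, 9.46 to 23.4), against 3.86% in the remaining windows. Both touched 2 of the 116. The mature sequences below, from RefSeq (GRCm38.p6), show the best known of those touched, chosen after their values were seen, with the seed (bases 2 to 8) in capitals.
mmu-miR-126a-3p: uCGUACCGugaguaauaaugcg
mmu-miR-199b-3p: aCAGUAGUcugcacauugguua
mmu-miR-210-3p: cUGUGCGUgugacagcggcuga
mmu-miR-191-5p: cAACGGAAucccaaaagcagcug
mmu-miR-425-5p: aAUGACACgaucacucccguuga
mmu-miR-203-3p: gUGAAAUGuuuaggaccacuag
mmu-miR-338-3p: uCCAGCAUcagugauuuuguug
All 7 seeds differ. The first 5 were touched by pSmad1/5 rows. The hairpin of miR-126a, a microRNA of endothelial cells, lies within Egfl7, at a row of maximum 16 and percentile 77.5, and that of miR-199b within Dnm1, the gene of dynamin 1, at a row of maximum 16. The miR-210 hairpin, of a microRNA induced by low oxygen, lay at a row of maximum 14. miR-191 and miR-425 share 1 row within Dalrd3 (chr9:108566384-108569643, maximum 15). The last 2 were touched by pSmad3 rows, at miR-203, a microRNA of stratified epithelium, with a maximum of 13, and at miR-338, within Aatk, with a maximum of 18. These maxima belong to whole calls and lie near the list medians of 16 and 13.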

How the data were processed

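Tools named in the submitters' processing notes, without versions, settings or order, are SEACR, deepTools, bedtools, SAMtools and Bowtie2, and the build is mm10. The authors deposited 1 list of common peaks per antibody, with a position, a total signal, a maximum signal and the region of the maximum for each row. These signals are the authors' values in their own scaling. The deposited maximum is a score in the same scaling, and both serve here to rank and describe rows of 1 list and not to set the antibodies against each other. A percentile is the share of rows of the list with a lower total signal. The sources used here do not give how the libraries of an antibody were joined, which control was used or how reads with several matches were treated. Read depth is unknown, so no value carries an error between libraries, and a gene without a row may have signal below the calling threshold.

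Libraries were grouped by the antibody in their titles. Genes and promoters came from RefSeq (GRCm38.p6). Genes placed below 3 Mb were not used. Of 1636 coding genes in the windows, 1337 had a promoter. Shares have exact 95% Clopper-Pearson intervals that treat rows, even pieces of 1 call, as independent, so they understate the error. No test was run, because each antibody has 1 list and 1 condition. The remaining windows are those of chromosomes 1 to 19 without the 84 windows and without the 3 windows of the chromosome 4 cluster. The windows, the gene lists and the rules were chosen with earlier results of these data known.

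The text names the gene with the most pSmad1/5 calls in each window, that with the most pSmad3 calls in the 10 windows richest in pSmad3 rows, the genes nearest to the 10 rows of highest total signal in each list, and up to 5 genes with a row and 3 without from each gene list. Some genes the rule takes are left out of the text. Other genes, among them families of the high-maximum windows, were named after their values were seen. Alternatives covered the row threshold, the placing of windows, distinct calls, high rows, the overlap and the locus. The counting steps were tested on simulated data. Python 3.11.15, pandas 2.3.3, numpy 2.4.6, scipy 1.17.1 and matplotlib 3.10.9 were used.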

Additional observations from a re-analysis of the deposited data

How the results depend on the processing

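Depth, the calling settings and the spread between libraries are unknown, and the windows rest on 1 list, so the values below show only how the counts depend on the choices made here. No paired analysis was possible because no value per library was used and no test was run. Of 65 alternatives, 22 gave a value inside the interval of the main one (or within 1.5 times a count) and 43 did not. Of 50 alternative shares set beside the same share over chromosomes 1 to 19, 7 lay on the other side of it than with the settings reported. The share of pSmad1/5 rows touching a gene, 56.4% and below the 57.4% of chromosomes 1 to 19, lay above it with 15 or more rows, with 20 or more calls, without high-maximum windows and, at 62.2% against 59.3%, without high rows. That of pSmad3 rows, 62.4% and above the 61.2% of chromosomes 1 to 19, lay below it with 25 or more rows (58.7%) and by row midpoint (56.0% against 56.03%). The pSmad1/5 overlap lay below its 21.6% without high-maximum windows (21.2%). The cause of these shifts was not tested beyond the smaller or larger sets of rows that the settings leave.

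With 15 or more rows, 177 windows held 31.7% of pSmad3 rows, 30.1% of pSmad1/5 and 31.6% of pSmad3 rows overlapped, 31.4% and 4.60% of calls were in pieces, 59.3% of pSmad1/5 rows touched a gene and 47.2% of genes had a pSmad3 row. With 25 or more rows, 42 windows held 10.8%, the overlaps were 44.3% and 42.6%, 39.1% of pSmad1/5 calls were in pieces, 52.8% and 58.7% of rows touched a gene and 57.6% of genes had a pSmad3 row. Windows shifted by 0.5 Mb held 20.2% of pSmad3 rows. With 20 or more distinct calls, 23 windows, all among the 84, held 6.22%, the overlaps were 29.4% and 31.7%, 28.8% of pSmad1/5 calls were in pieces, 63.5% and 69.7% of rows touched a gene and 63.4% of genes had a pSmad3 row. Without rows over 2 times the median maximum, 67 windows, all among the 84, held 15.7%, the overlaps were 26.3% and 29.7%, 31.9% of pSmad1/5 calls were in pieces, and 62.2% and 66.8% of rows touched a gene.

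Requiring an overlap of at least 50% of the row gave 30.4% for pSmad1/5 and 12.5% for pSmad3. Rows at or above the median total signal lay at 36.7% of genes for pSmad3, and the gene body alone gave 36.5%. By row midpoint, 52.3% of pSmad1/5 and 56.0% of pSmad3 rows lay in a gene. Leaving out the 21 high-maximum windows, a setting added after the data were seen, left 13.51% of pSmad3 rows, overlaps of 21.2% and 25.9%, 29.4% of pSmad1/5 calls in pieces, and 67.5% and 71.2% of rows touching a gene, so the pooled overlap rests largely on those windows.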
